A study of Mus musculus with 4 samples.

Results

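Serpins are a family of protease inhibitors named in mice by clade letter and number, from Serpina1a to Serpini2. The array design held 62 genes whose name begins with Serpin, measured by 88 spots of 79 different sequences. A gene was taken as a member when at least 1 of its sequences gave a signal well above background on at least 1 of the 4 arrays, which left 44 genes, 61 spots and 52 sequences. These 44 are part of 22162 genes that met the same condition. Clade A held 18 of its 25 genes and clade B 16 of its 27. Clades C, D, G and H held 1 gene each, clades E, F and I held 2 each, and none of these was lost. Just inside the condition lay Serpinb12, at a relative signal of 0.0136 on the only array that measured it, and just outside it lay Serpinb9e, whose highest relative signal was 0.0164. The relative signal is the background-subtracted brightness of a spot divided by the array's 75th percentile, and a value of 1 equals that percentile.

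The arrays carried colon RNA of C57BL/6 mice, either wildtype (WT) or X-KO (KO), which lack both copies of Pla2g10, the gene of a secreted phospholipase A2 that releases fatty acids from membrane lipids. Mice were untreated (naive) or had drunk 1% (w/v) dextran sulfate sodium (DSS) until day 7, a polymer that damages the epithelium of the colon and causes colitis. The mice appear to be males of 9 weeks, although the labels give these entries under each other's heading and the growth protocol gives 8 weeks. How the gene was deleted is not given in the labels. Each of the 4 arrays was given the pooled RNA of 3 animals, which makes 1 array a group, and no spread between mice could be measured. For this reason a difference between 2 arrays is given as a ratio with no p-value, and a gene was counted as higher or lower when the ratio passed 2-fold.

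A serpin presents a flexible loop as bait to a protease, and when the protease cuts the loop the inhibitor changes shape and traps the enzyme in a covalent complex. Members of clade A are mostly secreted into blood and tissue fluid, members of clade B mostly stay within cells, and the other clades include the inhibitors of clotting, of clot dissolution and of complement. Some members, such as the collagen chaperone Serpinh1, no longer inhibit proteases. In the colon, serpins face proteases released by leukocytes, by the epithelium and from the gut content.

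Between 67.7% and 70.4% of the spots on an array were well above background, and the standard deviation among repeated spots of a sequence had a median between 0.0576 and 0.0637 on the log2 scale. Pla2g10 itself gave relative signals of 15.8 in WT naive, 19.0 in WT DSS, 1.69 in KO naive and 0.993 in KO DSS, so that both KO arrays lay below both WT arrays. All 17 colon epithelium genes of a marker list were well above background on each array. Of 17 measured neutrophil genes, 9 were over 2-fold higher with DSS in WT and 11 in KO, and 11 were higher in KO DSS than in WT DSS. For 13 measured macrophage and monocyte genes these counts were 8, 11 and 7. In mixed tissue RNA, fewer cells of a type and less RNA per cell cannot be told apart.

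With DSS, 9 of the 44 Serpin genes were over 2-fold higher in WT (20.5%), against 3.44% of all genes, and 16 were higher in KO (36.4%), against 5.67% of all genes. Of these, 5 in WT and 6 in KO were bounds, from genes that became members through DSS arrays alone, so these calls add no support. Among the 32 members well above background on all 4 arrays, 4 were higher in WT (2.58% of all such genes) and 10 in KO (4.71%). Serpina9 was the 1 member over 2-fold lower in each genotype, where 5.13% of all genes in WT and 5% in KO were lower. In the naive colon, Serpind1 was the 1 member higher in KO than in WT, and 0 members were lower, against 1.13% and 1.04% of all genes. In the DSS colon, 8 members were higher in KO than in WT (18.2%) and 4 were lower (9.09%), against 5.06% and 2.2% of all genes. The median log2 ratio of the members was 0.50 for DSS in WT and 0.34 for DSS in KO, while that of all genes was -0.02 and -0.13. With bounds in place of dim values the members' medians were 0.37 and 0.34. Scaled to the median spot of each array, the all-gene median for DSS in WT moved from -0.02 to 0.12, 4.33% of all genes were higher and 3.79% lower in that comparison, and 10 members were higher and 1 lower. The 4 comparisons share arrays with one another, so that their counts are not independent.

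**Figure D1:**
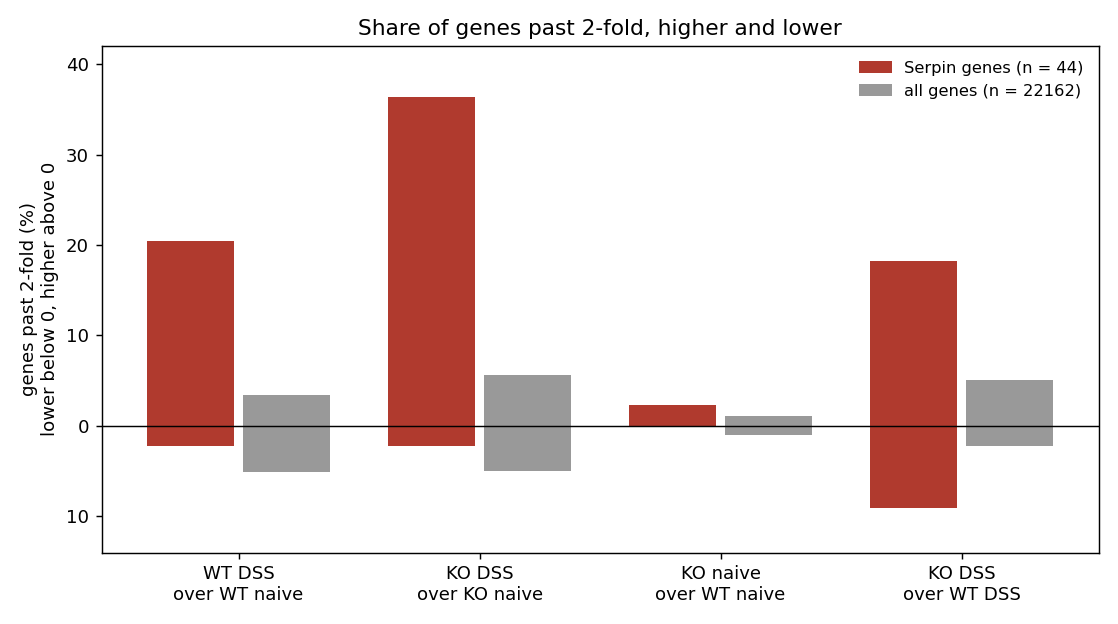
Bars give the percentage of genes past 2-fold in each of the 4 comparisons, higher above 0 and lower below 0, for the 44 Serpin genes and for all 22162 genes. With DSS, 36.4% of the Serpin genes were higher in KO and 20.5% in WT, against 5.67% and 3.44% of all genes. Of the Serpin genes counted as higher, 6 in KO and 5 in WT became members through DSS arrays alone.

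A set of 7 members passed 2-fold with DSS in both genotypes, among them Serpina3c, Serpina3f, Serpina3g, Serpina3m, Serpina3n and Serpinb2. Another 9 passed it only in KO by this count, namely Serpina3h, Serpina3i, Serpina3k, Serpinb6b, Serpinb9, Serpine2, Serpinf1, Serping1 and Serpinh1. Serpina12 and Serpinb3a passed it only in WT by the same count. The difference between the genotypes' responses could not be tested with these 4 arrays. A further 23 members passed 2-fold in none of the 4 comparisons. These counts were not made over all genes, so no share stands beside them. Of all 22162 genes, too, more were higher with DSS in KO (1257) than in WT (763). The number that passed in KO alone is therefore not a result about these members.

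**Figure D2:**
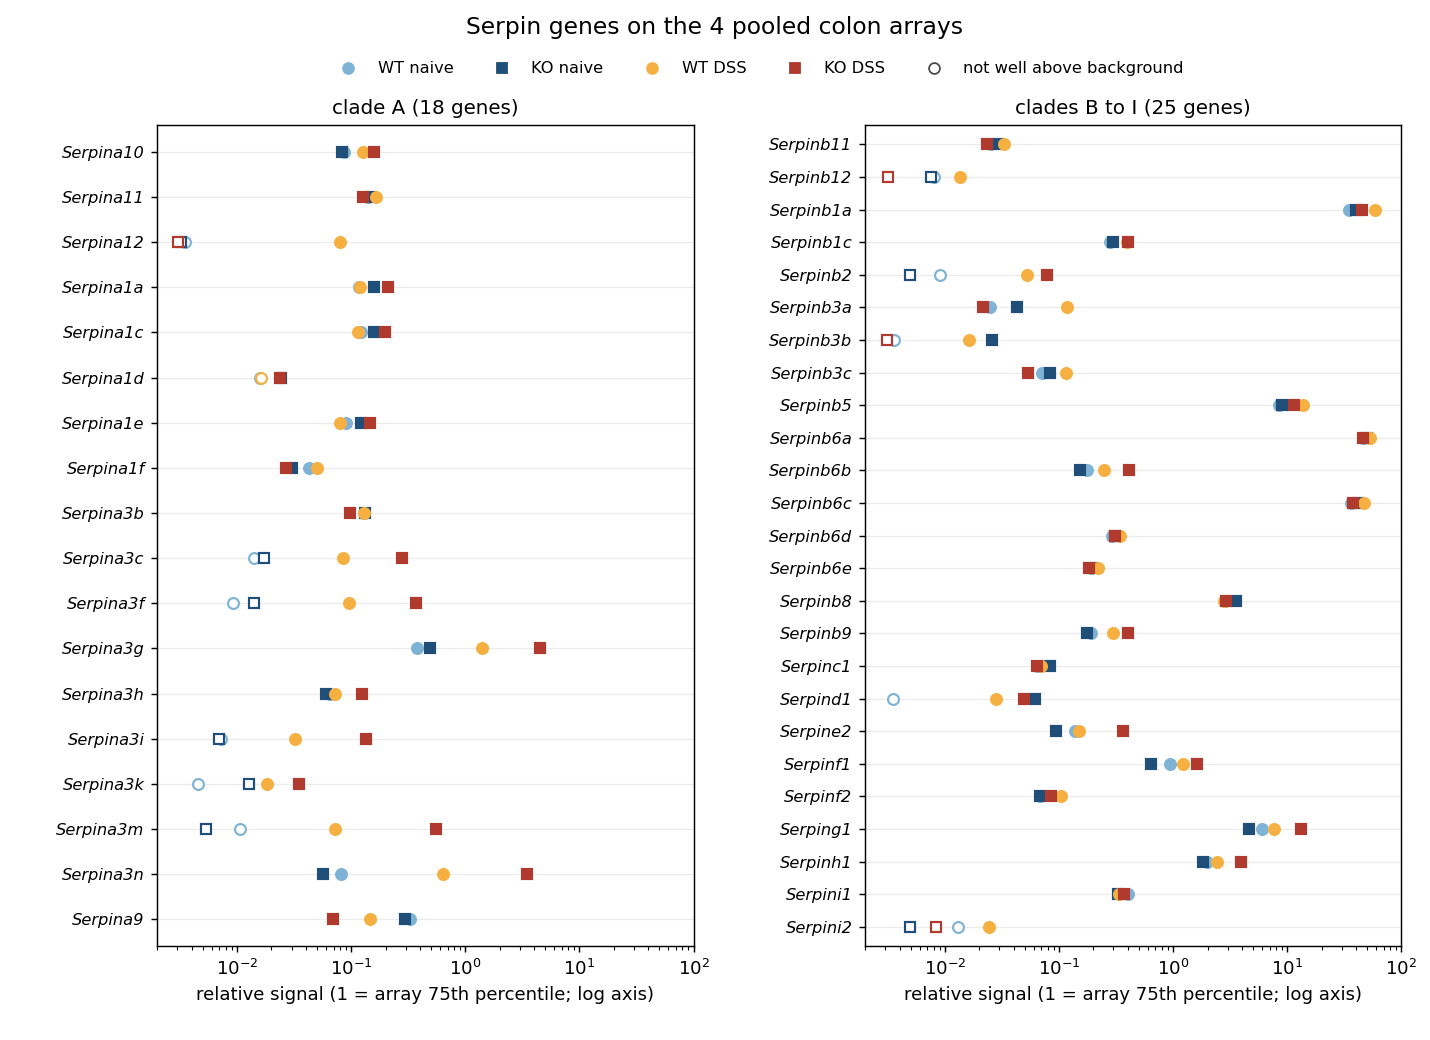
Each row is 1 of 43 Serpin genes and each mark is its relative signal on 1 array, on a log axis, with open marks for signals not well above background. Most Serpina3 rows have the KO DSS array farthest to the right, while Serpinb6a stays between 46.1 and 53.2 on all 4 arrays.

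The Serpina3 genes are the mouse counterparts of a single human gene for alpha-1-antichymotrypsin, an acute-phase inhibitor of leukocyte proteases, and they lie side by side on chromosome 12. All 18 clade A members lay on that chromosome, with array sequences between 104854887 and 105651977 of the mm9 build. For 6 of the 9 Serpina3 members RefSeq gives a promoter (GRCm38.p6, 250 bases before to 50 bases after the start). The best ungapped alignment to the Serpina3g promoter was taken in each of the other 5. Of 42 bases, 36 were identical in Serpina3i, 33 in Serpina3c, 32 in Serpina3n, 31 in Serpina3b and 25 in Serpina3f. The promoters of Serpina3a and Serpina3j, which were not members, aligned at 20. The stretches were chosen after the search for motifs and are shown for all 6 members with a promoter, among them Serpina3b, which passed 2-fold nowhere. Serpina3m, at least 36.1-fold higher with DSS in KO, had no promoter to show. Capitals mark the 9 bases aligned with TTCNNNGAA, the letters of a STAT binding motif.
Serpina3g, chr12:104236106-104236131, plus strand: agttatagTTCCCAGAAatcacccgg
Serpina3i, chr12:104263012-104263037, plus strand: agtgcttgTTCCCAGAAatcacccag
Serpina3f, chr12:104214415-104214440, plus strand: agttctatTTCCTAGAAatcacccat
Serpina3n, chr12:104406577-104406602, plus strand: aatccatgTTACCAGAAatcatccag
Serpina3c, chr12:104153975-104154000, minus strand: aatccataTTACCAGAAatcatccag
Serpina3b, chr12:104127865-104127890, plus strand: agtccttgTCACCATAAatcatccta

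Serpina3g, Serpina3i and Serpina3f hold the motif whole, while Serpina3n and Serpina3c each carry the substitution C3A, counted from 1 at the first capital, and so do not match it. Serpina3b differs from the motif at more positions. The 9 bases lie 25 to 33 bases upstream of the annotated start in Serpina3g, 94 to 102 in Serpina3i and 115 to 123 in Serpina3n. Counted by promoter, where a gene can have several, 4 of 7 Serpina3 promoters, 10 of the 43 promoters of all members and 8.3% of all 32851 promoters hold TTCNNNGAA. Counted by gene, it was in 3 of the 6 Serpina3 members and 4 of the 30 other members with a promoter. The other motifs searched were GGGA and TTCC with 2 free bases between for NF-kB (in 1.47% of all promoters), TGANTCA for AP-1 (7.81%), a pair of GAAA with 2 free bases between for interferon response elements (3.44%), TTGCNNAA for C/EBP (10.8%), GAA, TTC and GAA with 2 free bases between neighbours for heat shock elements (0.603%) and, on the sense strand alone, TATAAA (8.32%). Both strands were read for the others, and none of the 6 stretches holds another of them whole. Of the 43 member promoters, 12 hold TTGCNNAA, 10 TATAAA, 9 TGANTCA, 2 the interferon response letters, and 0 the NF-kB or heat shock letters. Of the 7 Serpina3 promoters, 3 hold TTGCNNAA, 2 TATAAA and 0 the others of these. TTGCNNAA was found in the Serpina3b and Serpina3f promoters, outside the stretches shown. A match of letters describes the sequence and shows no binding.

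Serpina3n, a secreted inhibitor of granzyme B and leukocyte elastase, gave relative signals of 0.0821 in WT naive, 0.632 in WT DSS, 0.0568 in KO naive and 3.44 in KO DSS. Both DSS arrays lay above both naive arrays, the WT pair by 7.69-fold and the KO pair by 60.6-fold, and KO DSS was 5.45-fold above WT DSS. Serpina3g, an inhibitor that acts inside leukocytes against cathepsins and is the brightest member of clade A, gave 0.379, 1.39, 0.493 and 4.53 in the same order. Its ratio to the naive array was 3.67-fold in WT and 9.18-fold in KO. The naive arrays of the genotypes were close, at a log2 ratio of 0.38 for Serpina3g and -0.53 for Serpina3n, KO over WT.

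Serpina3m was not well above background on either naive array (measured at 0.0105 in WT and 0.00534 in KO), and the DSS arrays gave 0.0716 in WT and 0.555 in KO. It was therefore at least 4.36-fold higher with DSS in WT and at least 36.1-fold higher in KO, with the dimmest signal still well above background on each naive array standing in for the unmeasured one. KO DSS was 7.76-fold above WT DSS. Serpina3f, too, was seen on the DSS arrays alone, at 0.0966 in WT and 0.371 in KO, which puts it at least 5.89-fold and at least 24.1-fold above naive. Serpina3c gave 0.084 in WT DSS and 0.278 in KO DSS, at least 5.12-fold and at least 16.2-fold above naive arrays that did not measure it. KO DSS exceeded WT DSS 3.84-fold for Serpina3f and 3.32-fold for Serpina3c. These bounds depend on how background was corrected, and with normexp, a correction that models signal and background together, the log2 bounds in WT and KO were 1.15 and 3.58 for Serpina3m, 1.64 and 3.24 for Serpina3f, and 1.25 and 2.60 for Serpina3c, against 2.13 and 5.18, 2.56 and 4.59, and 2.36 and 4.01 as first given.

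Serpina3i reached 0.0319 on the WT DSS array and 0.135 on the KO DSS array with no well-measured naive signal, and it passed 2-fold in KO (at least 8.8-fold, log2 3.14, or log2 2.01 with normexp) but not in WT (at least 1.95-fold). Serpina3k, which binds tissue kallikrein, was near the detection limit, at 0.0182 on the WT DSS array and 0.0349 on the KO DSS array, at least 2.27-fold above naive in KO, a call lost with normexp at log2 0.48. Serpina3h was measured on all 4 arrays, at 0.0651 in WT naive, 0.0715 in WT DSS, 0.0602 in KO naive and 0.123 in KO DSS. Its highest array was KO DSS, 2.05-fold above KO naive, which normexp left short of 2-fold at log2 0.79. Serpina3b stayed between 0.0979 and 0.131 on all 4 arrays and passed 2-fold in no comparison.

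**Figure D3:**
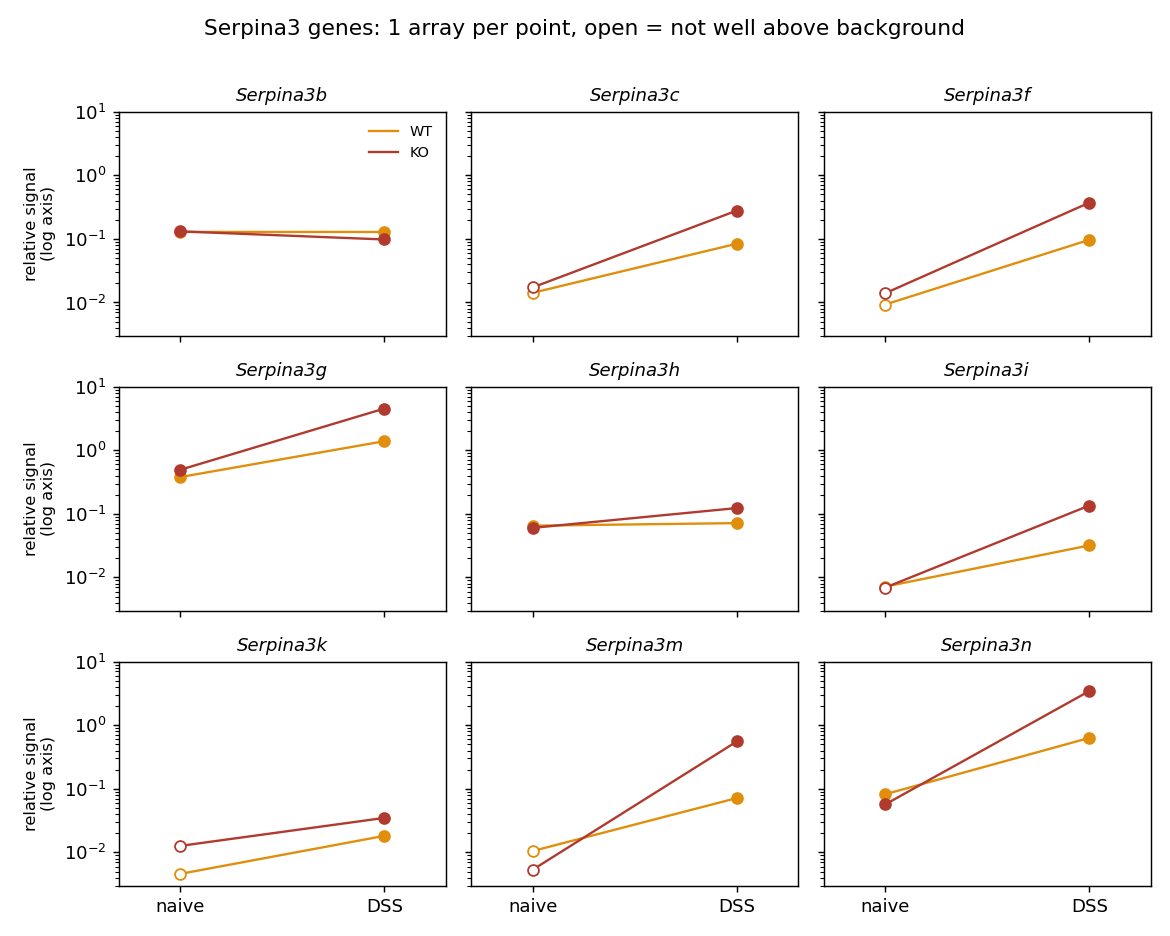
Each panel is 1 of the 9 Serpina3 genes, with the relative signal on a log axis and lines joining the naive and DSS arrays of a genotype, open marks for signals not well above background. In 8 of the 9 panels the KO DSS mark is the highest, and Serpina3b is the exception.

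Over the 9 Serpina3 genes, 5 were higher with DSS in WT and 8 in KO, and 6 were higher in KO DSS than in WT DSS. The shares of all genes were 3.44%, 5.67% and 5.06%. With DSS, 3 of the 5 calls in WT and 5 of the 8 in KO were bounds, from genes that became members through the DSS arrays alone. The median log2 ratio of the 9 genes was 2.15 for DSS in WT and 4.01 in KO with dim values as measured, and 1.88 and 3.20 with bounds in their place. Among the other 35 members, 4 were higher with DSS in WT (11.4%) and 8 in KO (22.9%), and 2 were higher and 4 lower in KO DSS than in WT DSS. No pair of the array sequences behind the Serpina3 values shared a run of 15 or more bases. Transcripts were not searched, so a sequence may still match the transcript of another Serpina3 gene. These values may therefore not be separate measurements. Serpina3i and Serpina3f were each measured by 2 sequences. The second Serpina3i sequence gave log2 2.57 for DSS in WT and 5.22 in KO, against 2.15 and 4.29 for the first. The second Serpina3f sequence gave log2 1.96 and 3.77, against 3.38 and 4.73, all with dim naive values as measured.

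The second Serpina3i sequence overlaps the Serpina3h sequence in 57 bases, of which 51 are identical, and a stretch of both is shown because the signals of these genes may be shared. Here and below, capitals mark bases that differ, and positions are those of the mm9 build.
Serpina3h, chr12:105491741-105491770, plus strand: cacaggGgtcaaaTtAaTtctaTgttgtgA
Serpina3i, chr12:105506710-105506739, plus strand: cacaggAgtcaaaGtTaAtctaCgttgtgG

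Clade A also holds the Serpina1 genes, which encode alpha-1-antitrypsin, the main inhibitor of neutrophil elastase in plasma. Serpina1a, Serpina1c, Serpina1d, Serpina1e and Serpina1f passed 2-fold in no comparison. Serpina1a gave 0.117 in WT naive, 0.118 in WT DSS, 0.158 in KO naive and 0.21 in KO DSS, with both KO arrays above both WT arrays. The KO arrays were likewise above the WT arrays for Serpina1c and Serpina1e, at log2 ratios of KO over WT DSS of 0.79 and 0.86. Serpina1d was well above background on the KO arrays alone, at 0.0244 naive and 0.0239 with DSS. Serpina1f ran the other way, at a log2 ratio of -0.90. The second sequences of Serpina1a and Serpina1e gave 0.05 and 0.08 for KO over WT DSS, so that the difference was not shared by all sequences of these genes.

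The Serpina1a and Serpina1c sequences behind these values cannot be told apart, since 50 of their 51 overlapping bases are identical, with an unbroken run of 47. Serpina1e shares a run of 29 bases with each of them. A stretch with the base that differs is shown.
Serpina1a, chr12:105091849-105091878, minus strand: taaAatgtcatccttccttctgaattgggt
Serpina1c, chr12:105133186-105133215, minus strand: taaGatgtcatccttccttctgaattgggt

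Serpina9, known from germinal-centre B cells, gave 0.329 in WT naive, 0.147 in WT DSS, 0.294 in KO naive and 0.0692 in KO DSS. Both DSS arrays were below both naive arrays, the WT pair by 2.23-fold and the KO pair by 4.25-fold, and KO DSS was 2.13-fold below WT DSS. It was the 1 member lower with DSS in both genotypes, and normexp left it just short of 2-fold in WT at log2 -0.999 and in KO DSS over WT DSS at -0.92.

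Serpina12, or vaspin, an adipose tissue serpin, was well above background on the WT DSS array alone, at 0.0794, where it was at least 4.84-fold above WT naive. It was at least 5.62-fold lower on the KO DSS array, which did not measure it. As log2 these bounds were 2.28 and -2.49, and with normexp 1.49 and -1.60. Of 10 measured adipocyte genes, 6 were higher with DSS in WT and 5 in KO, and their summed relative signal was 21.3 in WT naive, 50.3 in WT DSS, 22.8 in KO naive and 45.7 in KO DSS. Adipsin (Cfd) was higher by log2 3.39 in WT and 3.14 in KO, and adiponectin (Adipoq) by 3.44 and 2.95. The part of these adipocyte genes' tissue in the Serpina12 value was not tested. Serpina10, which inhibits the activated clotting factor X, gave 0.0857, 0.127, 0.0828 and 0.159 in the order WT naive, WT DSS, KO naive and KO DSS, just short of 2-fold in KO at log2 0.94. Serpina11 stayed between 0.127 and 0.164.

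In clade B, whose 16 members lay on chromosomes 1 and 13 with 8 on each, Serpinb2 was the gene higher with DSS in both genotypes. Serpinb2 encodes plasminogen activator inhibitor 2 and is made by monocytes and stressed epithelium. It was not well above background on the naive arrays and gave 0.0519 in WT DSS and 0.078 in KO DSS, at least 3.17-fold and at least 5.08-fold above naive. With normexp the log2 bounds were 0.92 in WT, short of 2-fold, and 1.255 in KO. The DSS arrays of the genotypes differed by log2 0.59, KO over WT.

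Serpinb9, the inhibitor of granzyme B, and Serpinb6b, a relative of the cathepsin G inhibitor Serpinb6a, passed 2-fold with DSS in KO alone by count. Serpinb9 gave 0.192 in WT naive, 0.299 in WT DSS, 0.175 in KO naive and 0.399 in KO DSS, ratios of 1.55-fold in WT and 2.29-fold in KO. Serpinb6b gave 0.174, 0.25, 0.152 and 0.411, ratios of 1.43-fold and 2.71-fold. For both genes each DSS array lay above both naive arrays. Granzyme B (Gzmb), the target of Serpinb9, was higher with DSS by log2 1.06 in WT and 1.72 in KO. Of 6 measured granzyme and perforin genes, 2 were over 2-fold higher in each genotype, and Gzmc, the other one, was at least log2 1.84 higher in WT and at least log2 2.14 higher in KO.

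Serpinb3a, a relative of the human squamous cell carcinoma antigens that inhibit cysteine and serine proteases, gave 0.0248 in WT naive, 0.118 in WT DSS, 0.0431 in KO naive and 0.0216 in KO DSS. The WT DSS array was the highest, 4.74-fold above WT naive and 5.45-fold above KO DSS. In KO the DSS array was below the naive array, at a log2 ratio of -0.997, just short of 2-fold. The WT naive and KO DSS signals were near the lowest well-measured signals of those arrays, 0.0164 and 0.0141. The log2 ratios for DSS in WT and in KO were 2.24 and -0.997 here, 1.48 and -0.59 with normexp, and 2.46 and -0.79 with quantile normalization, and KO DSS over WT DSS moved from -2.45 to -1.58 with normexp. Serpinb3c showed the same order of arrays, with 0.0705, 0.116, 0.0828 and 0.053, and was 2.18-fold lower in KO DSS than in WT DSS, a call lost with normexp at log2 -0.84. It was measured by repeated spots of 1 sequence, which ran from 0.103 to 0.13 over 10 spots in WT DSS and from 0.047 to 0.0608 over 10 spots in KO DSS. These ranges do not overlap, but they show the error of 1 array and not that between mice. Serpinb3b was measured in KO naive (0.0258) and WT DSS (0.0164) alone, and its ratios, all bounds, did not pass 2-fold.

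The sequences of Serpinb3a and Serpinb3c overlap in 48 bases, of which 43 are identical, and are shown because these signals may be shared.
Serpinb3a, chr1:108942329-108942358, minus strand: ttttaTtAtagTttcttctaatctagcatA
Serpinb3c, chr1:109167943-109167972, minus strand: ttttaAtCtagGttcttctaatctagcatG

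Serpinb3 genes are made by stratified squamous epithelium, which lines the anal canal. Of 18 measured genes of that epithelium, DSS left 5 higher and 1 lower in WT, and 2 higher and 4 lower in KO, while KO DSS over WT DSS counted 2 higher and 5 lower. Their summed relative signal was 12.3 in WT naive, 15.7 in WT DSS, 14.2 in KO naive and 13.7 in KO DSS, and 16 to 18 of them were well above background on each array. Keratin 1 (Krt1) and loricrin (Lor), products of the outer layers of that epithelium, were picked from the 18 after their values were seen. Some other genes of the list went the other way. The log2 ratio for DSS was 2.28 in WT and -1.07 in KO for Krt1, and 1.86 and -1.05 for Lor. Keratin 5 (Krt5) and keratin 14 (Krt14), of the basal layer, were higher in KO DSS, at log2 ratios to KO naive of 1.80 and 1.77. How far the amount of this epithelium in the samples set the Serpinb3 values was not tested.

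**Figure D4:**
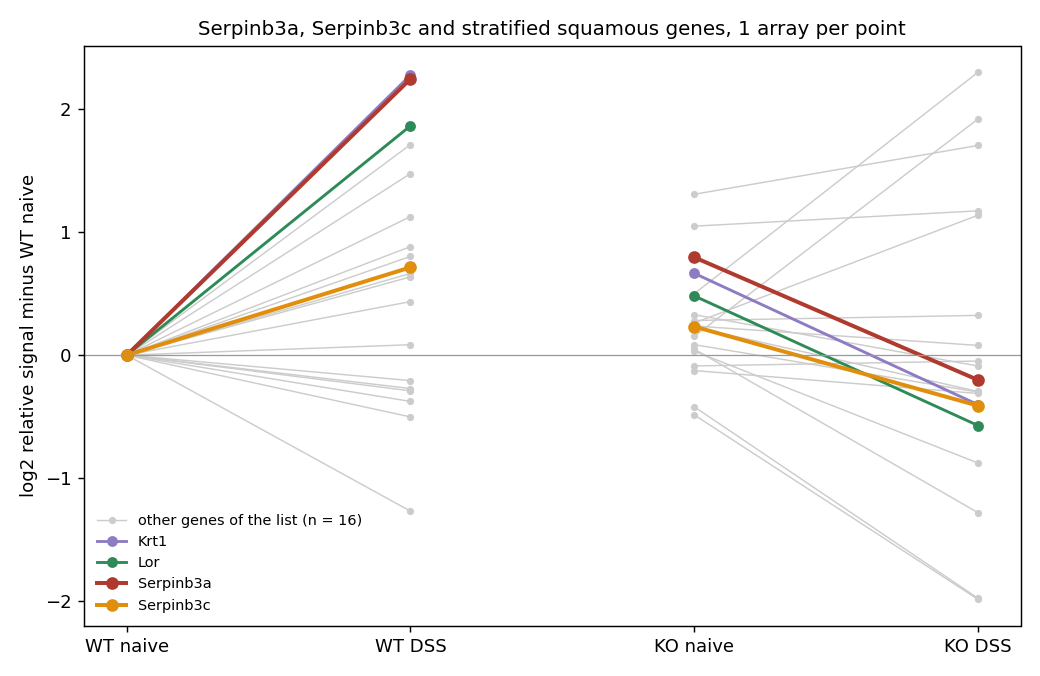
Points give the log2 relative signal on each array minus that of the WT naive array, for Serpinb3a, Serpinb3c, keratin 1 (Krt1), loricrin (Lor) and the other 16 measured squamous epithelium genes, with lines joining the arrays of a genotype. Serpinb3a, Krt1 and Lor are highest on the WT DSS array, while some other genes of the list are highest on the KO DSS array. Krt1 and Lor were picked after their values were seen.

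The brightest clade B genes stayed within 2-fold on all arrays. Serpinb6a, which inhibits cathepsin G, gave 46.1 in WT naive, 53.2 in WT DSS, 49.97 in KO naive and 46.1 in KO DSS. Serpinb1a, an inhibitor of neutrophil elastase, gave 34.7, 58.3, 39.6 and 45.2, a ratio of 1.68-fold for DSS in WT and 1.14-fold in KO. Serpinb5, or maspin, a serpin of epithelial cells that does not inhibit proteases, gave 8.41, 13.8, 9.06 and 11.6. Serpinb8, an inhibitor of furin, stayed between 2.8 and 3.52. Serpinb1c, Serpinb6c, Serpinb6d, Serpinb6e and Serpinb11 passed 2-fold in no comparison either, nor did Serpinb12, which only the WT DSS array measured.

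The sequences of Serpinb6a, Serpinb6c and Serpinb6e overlap, with 39 of 42 bases identical between Serpinb6a and Serpinb6c. Stretches are shown because signal may be shared between these genes.
Serpinb6a, chr13:34009825-34009854, minus strand: agtgaccttatccataaGtGCaatgGcaAT
Serpinb6c, chr13:33971714-33971743, minus strand: agtgaccttatccataaGtGCaatgAcaGC
Serpinb6e, chr13:33924242-33924271, minus strand: agtgaccttatccataaAtATaatgAcaGT

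Serpine2, or protease nexin-1, belongs to clade E and inhibits thrombin and the proteases that activate plasminogen. It gave 0.138 in WT naive, 0.148 in WT DSS, 0.0932 in KO naive and 0.363 in KO DSS. Here 1 array stood out, KO DSS, which was 3.89-fold above KO naive and 2.44-fold above WT DSS, while WT DSS was 1.08-fold above WT naive.

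Genes of the plasminogen system, whose activators it inhibits, were counted beside it. Of 10 measured genes of plasminogen activation, 2 were higher with DSS in WT, and KO counted 5 higher and 1 lower. Urokinase (Plau) was higher by log2 1.80 in WT and 2.24 in KO, its receptor (Plaur) by 2.01 and 1.80, and tissue plasminogen activator (Plat) by 0.94 and 2.10, the first of which is short of 2-fold. The protease hepsin (Hpn) had log2 ratios of -0.87 in WT and -1.85 in KO.

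Serping1, the inhibitor of the complement proteases C1r and C1s, gave 5.98 in WT naive, 7.58 in WT DSS, 4.65 in KO naive and 13.3 in KO DSS. KO DSS was the highest array, 2.86-fold above KO naive, and WT DSS was 1.27-fold above WT naive. A second Serping1 sequence gave log2 0.51 in WT and 1.73 in KO, against 0.34 and 1.52 for the first. Of 8 measured genes of the C1 and lectin pathway, 1 was higher with DSS in WT and 6 in KO, and 4 were higher in KO DSS than in WT DSS. Complement C2 was higher by log2 1.19 in WT and 1.93 in KO, and C1qb was at 0.87 and 1.98.

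Serpinh1, the chaperone of collagen in the endoplasmic reticulum, gave 1.98 in WT naive, 2.44 in WT DSS, 1.81 in KO naive and 3.92 in KO DSS. Its ratio was 2.17-fold for DSS in KO and 1.23-fold in WT. Of 28 measured genes of collagen folding and processing, 0 were higher with DSS in WT and 7 in KO. The procollagen protease Adamts2 had log2 ratios of 0.45 in WT and 1.35 in KO, and collagen type III (Col3a1) had -0.02 and 1.16. Serpinf1, or pigment epithelium-derived factor, a secreted serpin that does not inhibit proteases, gave 0.947, 1.23, 0.639 and 1.6, ratios of 1.29-fold in WT and 2.51-fold in KO. A second Serpinf1 sequence gave log2 0.40 in WT and 1.604 in KO, against 0.37 and 1.33 for the first.

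Marker lists were counted beside these genes. Of 11 fibroblast genes, 0 were higher with DSS in WT and 6 in KO, and their summed relative signal was 86.0 in WT naive, 89.4 in WT DSS, 69.4 in KO naive and 151.5 in KO DSS. Of 14 endothelial genes, 0 were higher in WT and 7 in KO, with sums of 11.4, 11.2, 10.7 and 14.96 in that order. Of 9 measured platelet genes, 0 were higher in WT and 5 in KO, with sums of 5.12, 6.43, 4.23 and 10.6. Their part in the values of Serpine2, Serpinf1, Serping1 and Serpinh1 was not tested. Of 8 measured erythroid genes, 5 were higher with DSS in WT and 8 in KO, and 7 were higher in KO DSS than in WT DSS, with sums of 16.8, 35.9, 14.8 and 108.6 in that order. Of 10 smooth muscle genes, 1 was lower with DSS in WT and 3 in KO, with sums of 326.9, 307.8, 319.2 and 189.7. The part of these lists in the Serpin values was not tested. The neutrophil sum was 34.5, 30.3, 41.8 and 76.9 in that order and the macrophage sum 27.0, 36.9, 27.8 and 54.8, and their part in the Serpina3, Serpinb2, Serpinb6b and Serpinb9 values was not tested either.

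**Figure D5:**
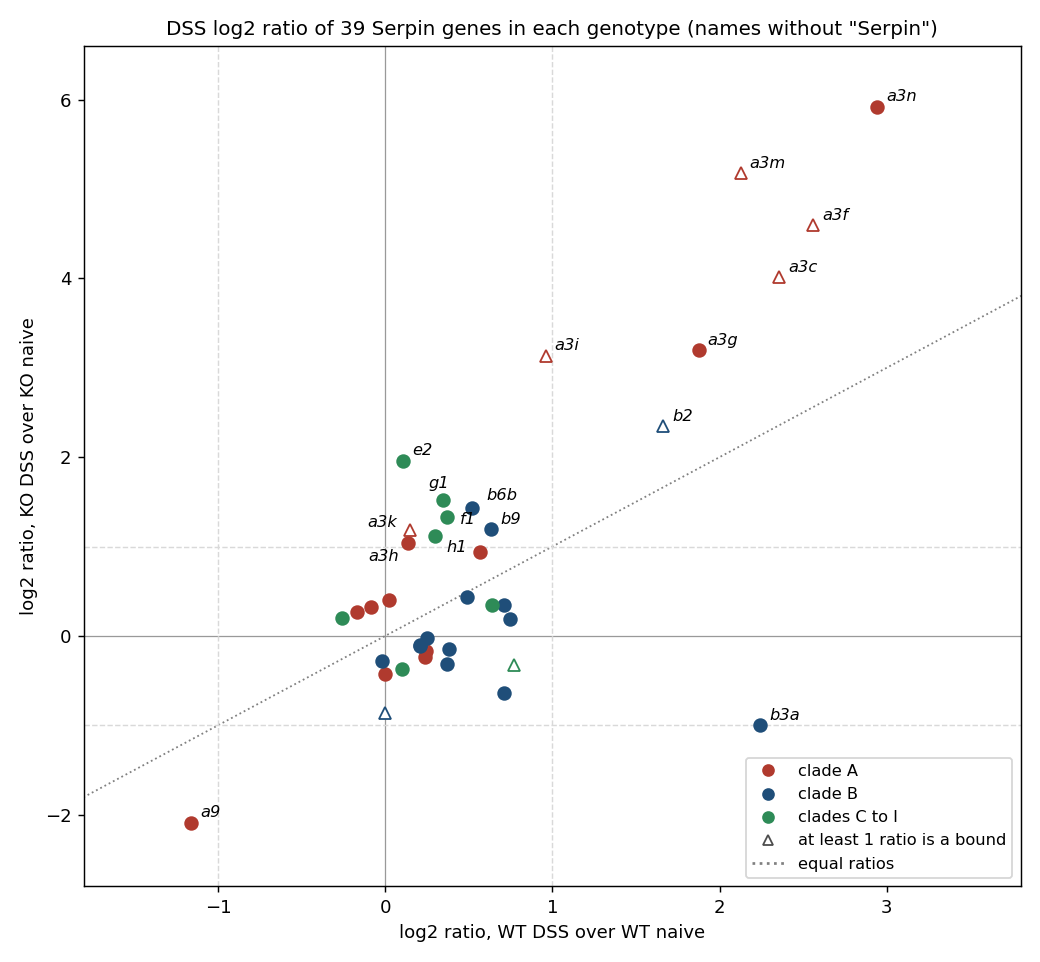
Each mark is 1 of 39 Serpin genes, at its log2 ratio for DSS in WT (horizontal) and in KO (vertical), with triangles where at least 1 ratio is a bound and dashed lines at 2-fold. A further 4 genes were dim on both arrays of a genotype and are not plotted. Serpina3n lies farthest out at 2.94 and 5.92, and Serpinb3a stands apart at 2.24 and -0.997.

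The plasma inhibitors of clotting gave low signals. Serpinc1, or antithrombin, stayed between 0.0637 and 0.0826 and passed 2-fold in no comparison. Serpind1, or heparin cofactor II, was dim in WT naive and gave 0.028 in WT DSS, 0.0619 in KO naive and 0.0492 in KO DSS, at least 3.77-fold higher in KO naive than in WT naive (log2 1.92, or 1.28 with normexp). Serpinf2, which inhibits plasmin, lay between 0.0674 and 0.105. Of 14 measured hepatocyte genes, DSS left 1 higher and 1 lower in WT, and 4 higher and 3 lower in KO, and 0 differed by 2-fold between the naive arrays, with sums between 6.00 and 6.78. Albumin (Alb), a defining gene, had its highest value, 0.02935, in WT naive.

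Serpini1, or neuroserpin, an inhibitor of tissue plasminogen activator in neurons, stayed between 0.326 and 0.399. Of 13 measured genes of enteric neurons and glia, 1 was higher with DSS in each genotype, with sums between 15.3 and 15.9. Serpini2, a serpin of the pancreas, was well above background on the WT DSS array alone, at 0.0245, and did not pass 2-fold. Pancreatic acinar genes were also present on the DSS arrays, where all 21 measured genes were well above background, against 13 in WT naive and 12 in KO naive. Of these, 17 were higher with DSS in WT, 11 were higher and 4 lower with DSS in KO, and 19 were lower in KO DSS than in WT DSS, with summed relative signals of 89.2 in WT naive, 120.0 in WT DSS, 110.6 in KO naive and 36.9 in KO DSS, and their part in the Serpini2 value was not tested.

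Other lists of proteases and related genes, not all of them proteases, were counted in the same way. None of 3 measured neutrophil serine proteases passed 2-fold in any comparison, with log2 ratios for DSS of at least 0.37 in WT and of 0.49 in KO for proteinase 3 (Prtn3), and of -0.10 and -0.34 for neutrophil elastase (Elane). Of 7 measured mast cell proteases, 3 were higher with DSS in WT and 5 in KO, and 4 were higher in KO DSS than in WT DSS. Mcpt2 was higher by at least log2 1.22 in WT and at least 3.47 in KO, Mcpt1 by at least 1.47 and by 3.04, and Mcpt4 by 1.61 and 2.68. Of 20 measured coagulation and contact genes, 0 were higher in WT and 3 in KO, and F13a1 was higher by log2 2.19 in KO. Among 13 cathepsins, 1 was lower in WT, and KO counted 2 higher and 1 lower. Among 14 measured epithelial membrane proteases and kallikreins, WT counted 1 higher and 1 lower, and KO 2 higher and 1 lower.

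Protease inhibitors outside the Serpin family were also often higher. Among 39 measured genes, DSS in WT counted 13 higher and 3 lower, DSS in KO 12 higher and 2 lower, and KO DSS over WT DSS 9 higher and 4 lower. Wfdc12 was higher by at least log2 5.06 in WT and at least 6.38 in KO. Slpi, which inhibits leukocyte elastase at mucosal surfaces, was higher by log2 3.82 in WT and 3.37 in KO. Timp1, an inhibitor of matrix metalloproteases, was higher by log2 3.26 and 4.26.

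The mean DSS effect over both genotypes was tested with limma, where each treatment holds 2 arrays and 1 residual degree of freedom remains. That degree of freedom is the difference between the DSS responses of the genotypes. A gene whose responses differ in size, such as Serpina3n, therefore had a large standard error, at 0.85. At an adjusted p of 0.05, 0 of the 44 Serpin genes and 0 of 22162 genes passed, while 14 and 4052 had an unadjusted p under 0.05. Of the 14 Serpin genes, 13 were higher with DSS, and the lowest adjusted p was 0.197, for Serpina3f, whose mean log2 effect was 4.06 with a standard error of 0.41. The fit took dim values as measured. Serpina3f was dim on both naive arrays, and its log2 bounds were 2.56 in WT and 4.59 in KO. With a variance model that follows the signal level and is robust to outlying genes, 7 Serpin genes and 1611 genes in all passed. Among these 7 were Serpina3c, Serpina3f, Serpina3i, Serpina9, Serpinb2 and Serpinb9. Serpina3c, Serpina3f, Serpina3i and Serpinb2 became members through the DSS arrays alone. Their effects in the fit rest on dim naive values, so their passing adds no support. Over genes well above background on all 4 arrays, 4 of 32 members and 1272 of 19328 genes passed, among them Serpina3g, Serpina3n and Serpina9. For the mean genotype effect, 0 of 44 Serpin genes passed by limma in the first 2 of these settings and 0 of 32 in the last. In the first setting, 7 of the 44, and 862 of 22162 genes, had an unadjusted limma p under 0.05.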

How the data were processed

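Colon RNA was measured on 4 single-colour Agilent arrays on 1 slide with 1 scan date. Agilent Feature Extraction 11.5.1.1 made the intensity values, per the submitters' processing notes, and the deposited processed intensity is background-subtracted, per the file headers. The deposited series table holds a signal equal to the processed intensity over the 75th percentile of each array, per its values, and served as an alternative. Array positions are mm9, per the file headers.

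Control spots and outlier spots (129 to 136 an array) were left out, 0 spots were saturated, and log2 intensity was set against the 75th percentile. Spots of a sequence were averaged, and a sequence counted as well above background when at least as many of its spots were as were not. A gene was its brightest such sequence. Where an array did not measure a gene, the higher of its dim value and the lowest well-measured signal of the array gave a bound, and a gene dim on both arrays had no ratio. Symbols came from RefSeq (GRCm38.p6), which named 27508 sequences by accession, 3544 by symbol and 404 by an older symbol, while 7973 kept the file's name. RefSeq promoters matched 36 of the 44 members.

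Members were named, with values for those past 2-fold and the brightest of each clade, except 1 that is counted but not reported here. Lists were described by counts, with up to 4 examples from the largest mean of both DSS ratios. Krt1 and Lor were instead picked after their values were seen. The mean effects were fitted over all genes with limma 3.58.1 in R 4.3.3, treatment plus genotype, Benjamini-Hochberg adjustment, tested on simulated data. Nothing in the labels says that arrays are replicates. The residual of the fit is the difference between the genotypes' DSS responses, so p-values rest on that difference and measure no spread between mice or repeated arrays. Members and lists were chosen with earlier results of these data known. The number of arrays limits the precision.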

Additional observations from a re-analysis of the deposited data

Results flagged for a closer look

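Serpinb3a was noted because its DSS ratio ran in opposite directions in the genotypes, at log2 2.24 in WT and -0.997 in KO, each from 1 array against 1 array. Its signals in WT naive (0.0248) and KO DSS (0.0216) were near the lowest well-measured signals of those arrays, 0.0164 and 0.0141. With normexp correction the log2 ratios were 1.48 and -0.59. The difference was not tested.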

How the results depend on the processing

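The 40 member ratios past 2-fold were recomputed under the alternatives of scaling, background correction, filter, choice of sequence and source of values. A 1.5-fold threshold and dim values as measured were counted too, which gave 343 values. Of these, 337 kept their direction and stayed past 2-fold, 6 were under it and 0 changed direction. Many of the 337 were fixed in advance. The 1.5-fold threshold and measured dim values cannot lose a call. Dropping the filter or using the deposited series table left these ratios nearly unchanged. The 6 all came from normexp background correction, the cause was not tested, and they were Serpina9 in WT (log2 -0.999), Serpinb2 in WT (0.92), Serpina3h in KO (0.79), Serpina3k in KO (0.48), and Serpina9 (-0.92) and Serpinb3c (-0.84) in KO DSS over WT DSS. With genes well above background on all 4 arrays, which leaves 32 members, the counts higher were 4 for DSS in WT (2.58% of all genes), 10 for DSS in KO (4.71%), 0 for KO over WT naive (0.507%) and 4 for KO over WT DSS (3.79%). At 1.5-fold, over all 44 members, 16 were higher for DSS in WT (7.95%) and 17 for DSS in KO (10.04%), so these counts were close. At that threshold 3 were higher for KO over WT naive (3.2%) and 18 for KO over WT DSS (10.4%). For DSS in KO, 4 were lower (15.6%). With dim values as measured, 13 were higher for DSS in WT (4.63%) and 16 for DSS in KO (6.48%). In that setting 2 were lower for DSS in KO (6.2%), 2 higher for KO over WT naive (1.74%) and 7 lower for KO over WT DSS (3.75%). With normexp, 0 were lower for DSS in WT (2.37%) and 2 for KO over WT DSS (1.26%). The limma test of the mean DSS effect passed 7 members with the trended, robust variance and 4 over genes measured on all 4 arrays. Some of the 7 were dim on both naive arrays. No paired analysis was possible because each group holds 1 array. With 1 array a group, no array could be left out. The members near background limit what the ratios show, since 12 of the 44 were not well above background on all arrays.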
